A study of Homo sapiens with 4 samples.

Results

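Cadherins and protocadherins are membrane proteins whose extracellular repeats bind calcium and hold neighbouring cells together or let them recognise each other. The genes described here were those whose symbols were CDH, PCDH or PCDHB followed by a number and that had 10 or more counts in at least 2 libraries. The deposited files list 61228 symbols, of which 50 matched the name rule (23 CDH, 11 PCDH and 16 PCDHB), and 32 of these 50 passed the count rule. The 32 genes comprised 10 cadherins (CDH2, CDH3, CDH6, CDH7, CDH8, CDH12, CDH13, CDH15, CDH18 and CDH24), 7 protocadherins outside the gene clusters (PCDH1, PCDH7, PCDH9, PCDH10, PCDH15, PCDH18 and PCDH19) and the 15 clustered genes PCDHB2 to PCDHB16.

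The cells were H1792, an established human lung cancer line listed as WT in genotype, which received DMSO (the solvent control) or ACBI1 for 96 h before RNA-seq, with 2 libraries per group and 4 in all. ACBI1 is a PROTAC that recruits the VHL ubiquitin ligase to the chromatin remodelling ATPases SMARCA2 and SMARCA4 and to the subunit PBRM1, which are then degraded; proteins were not analysed here. The labels give the ACBI1 dose as 1 mM, which is unusual for a PROTAC and may be an error of unit. Nothing says that replicates came from separate cultures, so the p-values measure the spread between these libraries, which may be technical.

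Classical and type II cadherins carry a cytoplasmic tail that binds beta-catenin or plakoglobin, and through alpha-catenin they join the actin cytoskeleton at adherens junctions. CDH13, or T-cadherin, lacks that tail and is held in the membrane by a lipid anchor. Protocadherins bind no beta-catenin. Their clustered genes lie side by side, each PCDHB gene with a promoter of its own, and in neurons the choice among those promoters gives single cells different surface identities.

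The PCDHB promoters share a short conserved element that is known as a binding site of the looping factor CTCF. It is shown here for genes at the 2 ends of the cluster, which differed in their values. RefSeq promoters (GRCh38.p14, from 250 bases before to 50 bases after each start) were matched for 24 of the 32 genes, 13 of them PCDHB. Windows of 30 bases from the 4 matched genes with the lowest and the 4 with the highest coordinates follow, 5′ to 3′ on the plus strand of chromosome 5, with the shared letters GGTGGCGCT in capitals.
PCDHB2 at chr5:141094545-141094574: agagacgcggGGTGGCGCTgcagccttaga
PCDHB3 at chr5:141100394-141100423: gcgaacgcatGGTGGCGCTgttgactaaga
PCDHB4 at chr5:141121724-141121753: caagacgcagGGTGGCGCTgcaggctaagt
PCDHB5 at chr5:141135180-141135209: taggacgcctGGTGGCGCTgcaggctaaga
PCDHB12 at chr5:141208644-141208673: ggagacgcgtGGTGGCGCTgcaggataata
PCDHB13 at chr5:141213866-141213895: gaggacgcgtGGTGGCGCTgcaggataaga
PCDHB14 at chr5:141223264-141223293: ggagacacatGGTGGCGCTacaggataaga
PCDHB15 at chr5:141245315-141245344: gacaacgcatGGTGGCGCTgcaggctaagg

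The 9 letters, searched on both strands (the reverse complement is AGCGCCACC), were chosen after the promoters had been read. They were present in 13 of 13 PCDHB promoters and in 176 of 35116 RefSeq promoters of the same length, or 0.501%. None of 19 promoters of the 11 matched CDH and PCDH genes held them, nor did any of 13 PCDHA or 25 PCDHG promoters. Variant spellings were not searched, so a promoter without these exact letters may still hold such an element. An exact match describes these letters in this window and says nothing of whether CTCF was bound in H1792 cells. Log2 changes with ACBI1 in the 13 matched PCDHB genes ran from -1.67 (PCDHB14) to 0.94 (PCDHB3). The letters thus occur at both ends of the cluster and do not set them apart. Whether the element is related to the changes was not tested. CDH3, CDH6, CDH13, CDH15, CDH24, PCDH10, PCDHB6 and PCDHB11 had no matched promoter and were not searched.

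Gene counts summed to between 64281850 and 86010100 per library, so that 10 counts corresponded to 0.112 to 0.153 CPM (counts per 1000000, TMM-scaled). In edgeR's quasi-likelihood test on 19159 genes, 1294 were higher and 2037 lower with ACBI1 at a Benjamini-Hochberg adjusted p under 0.05, and such genes are named called here. Epithelial markers were present only in part, and 5 of 5 listed markers were tested. KRT7, KRT8, KRT18 and KRT19 were called lower, against 10.6% of all tested genes. EPCAM was not called, with a log2 change of 1.32. It was at 5.38 and 2.78 CPM with DMSO and at 15.6 and 4.8 CPM with ACBI1. The 5 markers summed to 982 and 1035 CPM with DMSO and 323 and 202 CPM with ACBI1. Of these sums KRT7 made up 678 and 680 CPM with DMSO and 179 and 60.3 CPM with ACBI1. Some other epithelial genes were near 0. CDH1 had 4 to 16 counts, DSP 1 to 6, ESRP1 3 to 19, GRHL2 at most 3 and OVOL2 0. Others were not: with DMSO, DSG2 was at 225 and 256 CPM and KLF5 at 26.8 and 27.5 CPM. ELF3 was at 13.0 and 23.7 CPM and GRHL1 at 1.67 and 1.85 CPM with DMSO. Lung markers were near 0, with no count for NKX2-1 in any library, at most 1 count for SFTPC, at most 9 for SFTPB and 4 to 17 for NAPSA. Leukocyte markers were also low, with no count for CD3E, at most 2 for PTPRC and 10 to 47 for CD14. Since RNA was taken from whole dishes, fewer cells expressing a gene and less RNA per cell cannot be told apart.

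Of the 32 genes, 6 fell and 0 rose with ACBI1 (edgeR, adjusted over all 19159 genes tested); DESeq2 and edgeR without the filter on low counts also called PCDH10, as higher. Over all tested genes 10.6% were called lower, 6.75% higher and 17.4% in either direction. The 6 were CDH13, CDH15, PCDH1, PCDH18, PCDHB13 and PCDHB14. The log2 change was negative in 24 of the 32 genes, against 49.6% of all tested genes, with a median of -0.67, against 0.01 over all tested genes. In 23 genes the 2 groups did not overlap (63.2% of tested genes), 20 of them lower with ACBI1 (32.2% of tested genes), and 12 had an unadjusted p under 0.05 (33.9% of tested genes). All 32 genes passed the filter for testing. CDH7 and PCDH1 met the count rule through their DMSO libraries alone and so could add only to the falls. No gene met it through its ACBI1 libraries alone.

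**Figure D1:**
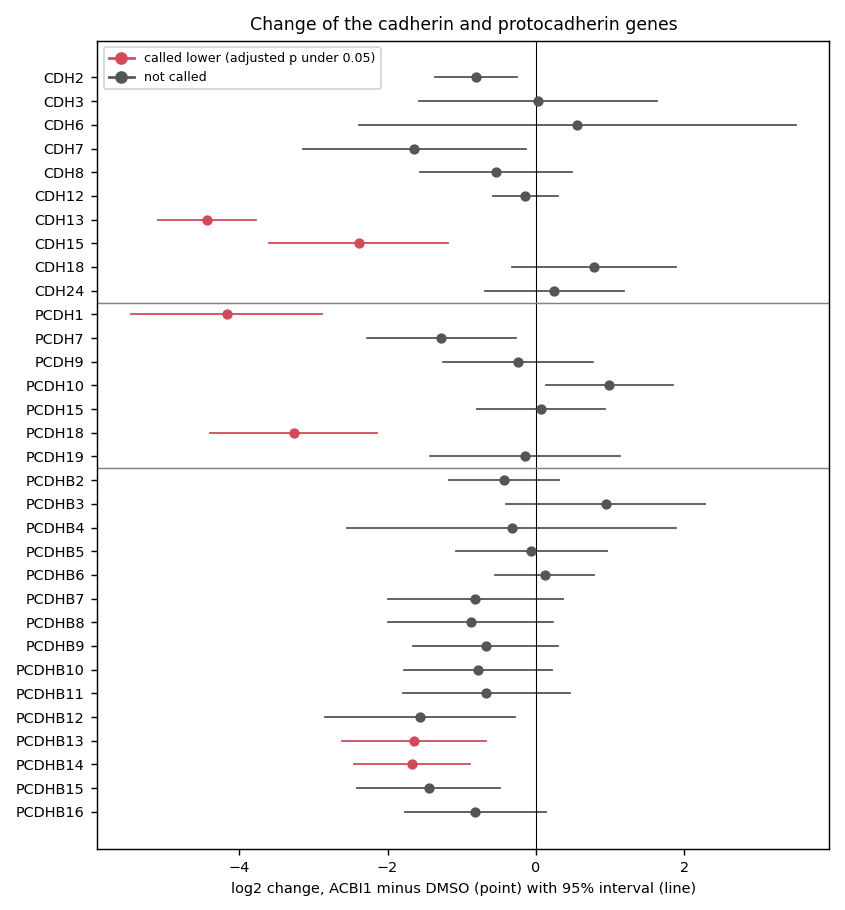
Log2 change, ACBI1 minus DMSO (x axis, with the 95% interval as a line), for each of the 32 genes, with cadherins at the top, protocadherins in the middle and PCDHB genes at the bottom. The 6 genes called lower are red; the largest fall was that of CDH13, at -4.43.

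CDH13, which encodes T-cadherin, a receptor for adiponectin and LDL, had the largest fall of the 32 genes. It lies at chr16:82626803-83800640 on the plus strand (GRCh38, GENCODE v29), and 1.26% of its exonic length overlaps another annotated gene. Its level was 822 CPM in DMSO replicate 1 and 580 CPM in DMSO replicate 2, against 28.8 and 36.4 CPM in ACBI1 replicates 1 and 2. Both ACBI1 libraries were far below both DMSO libraries, and the pairs of replicates lay close to each other relative to that gap. The log2 change was -4.43 (SE 0.27), or 21.5-fold lower, with an edgeR adjusted p of 0.00141. CDH13 was called in all 4 fits that left out 1 library, at log2 changes between -4.66 and -4.15.

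CDH2, or N-cadherin, the classical cadherin of mesenchymal and neural cells, was the most abundant of the 32 genes per exon length, at 235 CPM per kb with DMSO and 135 CPM per kb with ACBI1. It was at 1067 and 1258 CPM in the DMSO replicates and at 558 and 774 CPM in the ACBI1 replicates, and the groups did not overlap. The log2 change of -0.80 (95% interval -1.36 to -0.25) had an edgeR adjusted p of 0.0599 and was not called. Of 7 alternative fits on all 4 libraries without a block, 3 called CDH2, with adjusted p between 0.000992 and 0.0693.

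The make-up of the CDH transcripts differed between the groups. CDH13 provided 42.8% (95% exact interval 42.6 to 43.1) and 31.0% (30.7 to 31.2) of the counts of the 10 CDH genes in the DMSO replicates. In the ACBI1 replicates it provided 4.67% (4.50 to 4.85) and 4.31% (4.14 to 4.48). The intervals cover counting error only, and both ACBI1 libraries were below both DMSO libraries. Counts of CDH2 were 1.30 and 2.17 times those of CDH13 with DMSO, and 19.4 and 21.3 times with ACBI1. The 10 genes together were at 1920 and 1875 CPM with DMSO and at 616 and 846 CPM with ACBI1.

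CDH15, or M-cadherin, known from skeletal muscle and its satellite cells, lies at chr16:89171767-89195492 on the plus strand and was the other cadherin that fell. It was at 2.20 and 2.77 CPM with DMSO and at 0.659 and 0.275 CPM with ACBI1, with no overlap between the groups. The log2 change was -2.39 (SE 0.50, edgeR adjusted p 0.0268). The size and the call depended on the ACBI1 libraries: the change was -3.16 (adjusted p 0.0175) without ACBI1 replicate 1 and -1.92 (adjusted p 0.0582) without ACBI1 replicate 2.

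Of the other cadherins none was called, and 2 of them stood at several CPM. CDH12, a type II cadherin first described in brain, was at 18.4 and 17.9 CPM with DMSO and at 17.01 and 15.9 CPM with ACBI1, a log2 change of -0.14 with a 95% interval from -0.58 to 0.29. CDH24, which binds alpha-catenin and beta-catenin, was at 8.26 and 13.9 CPM with DMSO and at 9.20 and 17.1 CPM with ACBI1, so that the groups overlapped. Per exon length CDH12 and CDH24 stood next to each other, at 3.06 and 2.96 CPM per kb with DMSO, behind CDH2 and, with DMSO, CDH13 (62.7 CPM per kb). With ACBI1, CDH13 was at 2.91 CPM per kb, beside CDH12 at 2.77 and CDH24 at 3.51 CPM per kb.

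The 5 remaining cadherins were low in every library. CDH8, a type II cadherin, was at 0.732 to 1.63 CPM and CDH18, also type II, at 0.307 to 0.793 CPM, with log2 changes of -0.54 and 0.78. CDH3, or P-cadherin, an epithelial cadherin, had 8 and 15 counts with DMSO and 19 and 6 with ACBI1, with a log2 change of 0.03 and overlapping groups. CDH6, or K-cadherin, had 2 and 15 counts with DMSO and 3 and 21 with ACBI1. CDH7, a type II cadherin, had 11 and 17 counts with DMSO and 5 and 4 with ACBI1, a log2 change of -1.64 with an edgeR adjusted p of 0.123. CDH7 and PCDH1 passed the count rule through their DMSO libraries alone, so they could enter the set only as genes with more counts there; 27 of the 32 genes had 10 or more counts in all 4 libraries.

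Several cadherins that name cell types lay under the count rule. CDH1, or E-cadherin, the cadherin of epithelial adherens junctions, had 4 and 16 counts with DMSO and 7 and 6 with ACBI1, which overlapped; it was not tested. CDH5, the cadherin of endothelial junctions, had 2 and 4 counts with DMSO and 0 in both ACBI1 libraries. CDH16, known from kidney, had 4 and 21 counts with DMSO and 0 with ACBI1, at least 8.43-fold lower when 3 counts over the group stand for 0. CDH22 (7 and 3 counts with DMSO, 16 and 9 with ACBI1), CDH26 (6 to 9 counts) and CDH23 (0 to 6 counts) were the others nearest to the rule. Just inside it lay CDH3, CDH6, CDH7, PCDH19 (11 to 14 counts) and PCDHB4 (1 to 16 counts). Of the 18 symbols below the rule, CDH17, PCDH8, PCDH20 and PCDHB1 had 0 counts in every library.

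**Figure D2:**
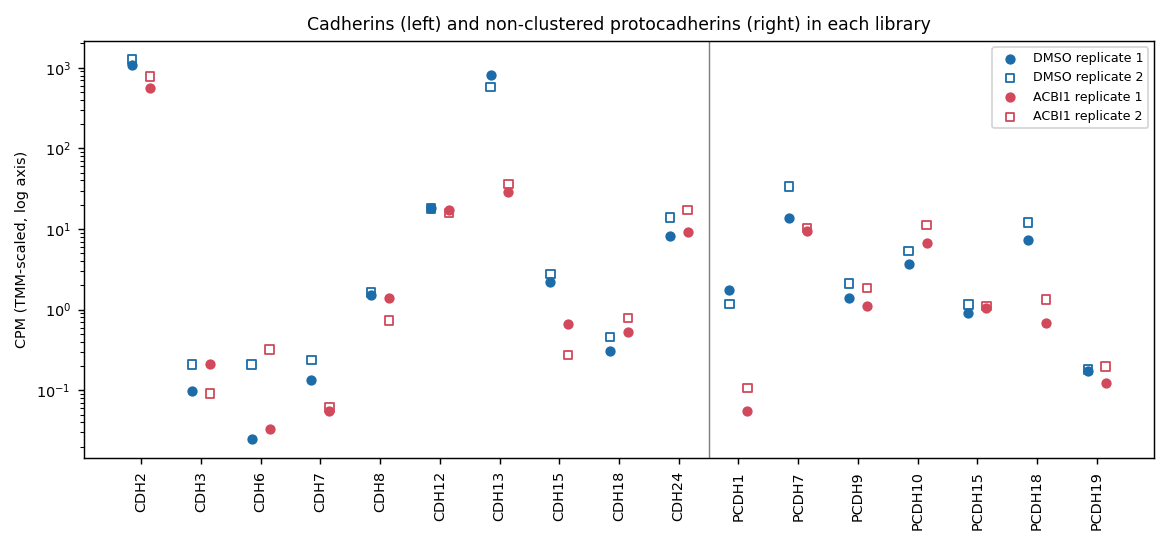
CPM on a log axis (y) of the 10 CDH genes and the 7 PCDH genes (x), with 1 point per library: blue for DMSO, red for ACBI1, circles for replicate 1 and squares for replicate 2. CDH13, CDH15, PCDH1 and PCDH18 have both red points far below both blue points, whereas PCDH10 has both red points above.

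Among the protocadherins outside the clusters, PCDH1 and PCDH18 fell (10.6% of all tested genes did) and the other 5 were not called. PCDH1, expressed in airway epithelium and linked to bronchial hyperresponsiveness, lies at chr5:141853111-141879246 on the minus strand. It had 141 and 84 counts (1.73 and 1.17 CPM) with DMSO and 5 and 7 counts (0.0559 and 0.107 CPM) with ACBI1. The ACBI1 libraries were thus close to the floor, and the groups did not overlap. PCDH1 met the count rule through its DMSO libraries alone, so it could enter the set only as a gene with more counts there. The log2 change was -4.17 (SE 0.53, edgeR adjusted p 0.00727); with each library left out in turn it ranged from -4.67 to -3.74 and stayed called.

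PCDH18, a delta protocadherin of mesenchyme and the nervous system, lies at chr4:137518918-137532494 on the minus strand. It was at 7.26 and 12.1 CPM with DMSO and at 0.681 and 1.34 CPM with ACBI1. Both ACBI1 libraries were below both DMSO libraries, with a log2 change of -3.27 (SE 0.46, edgeR adjusted p 0.00948). The change ranged from -3.84 to -2.85 with each library left out in turn, and all 4 fits called it.

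PCDH10, a delta protocadherin often silenced by methylation in tumours, lies on the same chromosome, at chr4:133149315-133208606 on the plus strand. It was at 3.67 and 5.37 CPM with DMSO and at 6.80 and 11.2 CPM with ACBI1. Both ACBI1 libraries were above both DMSO libraries, but the log2 change of 0.99 (95% interval 0.13 to 1.85) had an edgeR adjusted p of 0.107 and was not called. DESeq2 (adjusted p 0.0332) and edgeR without the filter on low counts (0.0203) called PCDH10 higher, as 2 of 7 alternative fits on all 4 libraries without a block. Counts of PCDH18 were 1.98 and 2.26 times those of PCDH10 with DMSO, and 0.100 and 0.120 times with ACBI1. Each library of a group was close to its replicate in this ratio.

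PCDH7, a delta protocadherin, was at 13.8 and 33.9 CPM with DMSO and at 9.39 and 10.3 CPM with ACBI1. The DMSO replicates were far apart, and the log2 change of -1.28 had an edgeR adjusted p of 0.0849. PCDH7 was called lower by DESeq2 (adjusted p 0.0122) and without the filter (1.5e-05). Its change was -1.78 (adjusted p 0.00138) without DMSO replicate 1 and -0.49 (adjusted p 0.349) without DMSO replicate 2. PCDH9, PCDH15, which forms the tip links of hair cells together with CDH23, and PCDH19 had log2 changes of -0.25, 0.07 and -0.15, with overlapping groups. Per exon length PCDH7 was the highest of the 7 with DMSO (1.95 CPM per kb), followed by PCDH18 (1.45 CPM per kb) and PCDH10 (0.445 CPM per kb). With ACBI1 the order was PCDH10 (0.884), PCDH7 (0.803) and PCDH18 (0.151 CPM per kb).

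The 15 PCDHB genes together were at 35.7 and 38.9 CPM with DMSO and at 26.6 and 18.4 CPM with ACBI1. The log2 change was negative in 13 of the 15, against 49.6% of all tested genes, with a median of -0.78. Under scaling by library size only it was negative in 12, with PCDHB5 at 0.03. In 12 the groups did not overlap (63.2% of tested genes), 11 of them lower (32.2% of tested genes) and 1, PCDHB3, higher with ACBI1. The 2 that were called, or 13.3% against 17.4% of all tested genes, were neighbours near the end of the cluster. PCDHB genes are near-identical copies in parts: 12.2% (PCDHB7) to 49.4% (PCDHB8) of their exonic stretches of 50 bases also occurred in another gene, with a median of 20.5%, against a median of 0.894% in the other 17 genes. Reads from such stretches could be lost or shared between copies, so values of single PCDHB genes are uncertain.

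PCDHB14 lies at chr5:141222932-141227759 and was at 5.81 and 8.52 CPM with DMSO and at 2.44 and 2.07 CPM with ACBI1. The groups did not overlap, with a log2 change of -1.67 (SE 0.32, edgeR adjusted p 0.0220). Its call was lost without DMSO replicate 2 (-1.36, adjusted p 0.0633), without ACBI1 replicate 1 (-1.78, 0.0541) and without ACBI1 replicate 2 (-1.56, 0.0680).

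PCDHB13, at chr5:141213919-141218979, was at 5.08 and 3.81 CPM with DMSO and at 1.82 and 1.02 CPM with ACBI1. Here too both ACBI1 libraries were below both DMSO libraries, with a log2 change of -1.64 (SE 0.40, edgeR adjusted p 0.0399). Its call was lost without DMSO replicate 1 (-1.42, adjusted p 0.0750) and without ACBI1 replicate 2 (-1.30, adjusted p 0.126). The neighbours PCDHB12 (1.99 and 1.46 CPM with DMSO, 0.838 and 0.320 CPM with ACBI1) and PCDHB15 (4.26 and 3.98 CPM, 1.98 and 1.04 CPM) had log2 changes of -1.56 and -1.44. Neither was called (edgeR adjusted p 0.0948 and 0.0556). Of 6 alternative fits on all 4 libraries without a block, 2 called PCDHB12 (DESeq2, adjusted p 0.0359, and no filter, 0.00382). For PCDHB15 there were 3 such fits (DESeq2, 0.00346, limma-voom, 0.0428, and no filter, 0.00214).

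Along the chromosome the genes run in the order PCDHB2, 3, 4, 5, 6, 7, 8, 16, 9, 10, 11, 12, 13, 14 and 15, from base 141094578 to base 141249365, all on the plus strand. Dividing them into 5 genes each, which was done after the values were seen, gave a median log2 change of -0.06 for the first 5 (PCDHB2 to PCDHB6, range -0.43 to 0.94). The next 5 (PCDHB7 to PCDHB10, with PCDHB16) had a median of -0.82 (range -0.88 to -0.68), and the last 5 (PCDHB11 to PCDHB15) a median of -1.56 (range -1.67 to -0.67). The genes nearest the start of the cluster thus had changes around 0, and those at its end the most negative ones.

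The summed levels of the same genes in the same libraries restate this order and are no second observation of it. The first 5 genes were at 12.9 and 15.9 CPM with DMSO and at 15.5 and 11.6 CPM with ACBI1, which overlapped. The last 5 were at 18.1 and 18.6 CPM with DMSO and at 7.83 and 4.82 CPM with ACBI1, which did not overlap, and the 5 between them went from 4.77 and 4.34 CPM to 3.21 and 1.998 CPM. The sums are a description and were not tested.

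As a description over the 15 genes, which share libraries and stretches of sequence, position in the order and log2 change had a Spearman's rho of -0.82 and a Pearson's r of -0.83. Against the mean DMSO level the rho of the change was -0.38, and against the share of repeated 50-base stretches it was 0.13. Taken singly against the mean of DMSO, ACBI1 replicate 1 gave a rho of -0.85 with position and ACBI1 replicate 2 gave -0.57. The medians of the 3 groups of 5 genes were 0.33, -0.57 and -1.06 in ACBI1 replicate 1, and -0.62, -1.14 and -1.99 in ACBI1 replicate 2. The 2 libraries thus differed in level along the whole cluster: ACBI1 replicate 1 was above ACBI1 replicate 2 in 15 of 15 PCDHB genes, by a median of 1.78 times, where the median over all tested genes was 1.00. The part of this difference between libraries in the changes above was not tested.

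**Figure D3:**
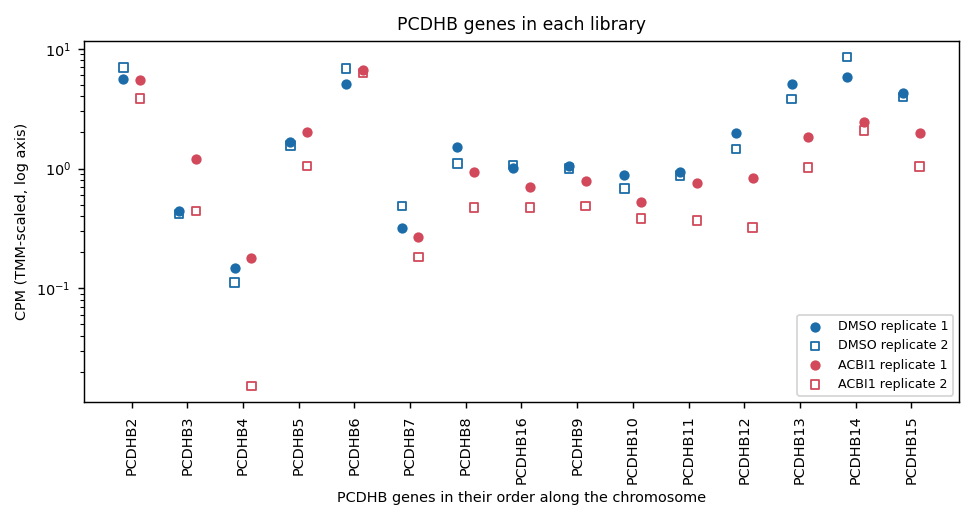
CPM on a log axis (y) of the 15 PCDHB genes in their order along chromosome 5 (x), with 1 point per library, coloured as in the plot of the CDH and PCDH genes. Red and blue points mix at PCDHB4 to PCDHB6, and both red points lie below both blue points from PCDHB7 to PCDHB15.

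At the start of the cluster PCDHB6 was at 5.06 and 6.83 CPM with DMSO and at 6.65 and 6.25 CPM with ACBI1, with overlapping groups and a log2 change of 0.12. PCDHB2 was at 5.59 and 6.96 CPM with DMSO and at 5.46 and 3.84 CPM with ACBI1, with a log2 change of -0.43 that was not called. Per exon length, PCDHB6 (1.82 CPM per kb), PCDHB2 (1.52) and PCDHB14 (1.48) were the highest PCDHB genes with DMSO. With ACBI1, PCDHB6 was at 1.98, PCDHB2 at 1.13 and PCDHB14 at 0.467 CPM per kb. PCDHB3 was the one PCDHB gene with both ACBI1 libraries above both DMSO libraries, at 36 and 30 counts with DMSO and 107 and 29 with ACBI1, where ACBI1 replicate 2 was level with DMSO replicate 1 (both 0.442 CPM). Its log2 change of 0.94 was not called and was 0.05 without ACBI1 replicate 1.

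The clusters on either side hold the PCDHA and PCDHG genes, whose variable exons are spliced to shared constant exons. Of 37 listed genes 26 were tested. Among the 26, 5 were called lower, against 10.6% of all tested genes, and 0 higher, against 6.75%. The 26 had a median change of -0.39 on the log2 scale. The 8 PCDHA genes had a median of 0.20 and the 18 PCDHG genes a median of -0.62. Of the 18, 17 were negative, against 49.6% of all tested genes. The largest fall was that of PCDHGA4, from 5.46 and 6.48 CPM to 1.76 and 1.02 CPM (log2 change -2.09, edgeR adjusted p 0.0177). PCDHGC3, a C-type gene expressed in many tissues, went from 76.7 and 136 CPM to 19.5 and 35.4 CPM (log2 change -1.95, edgeR adjusted p 0.0225). These 2 were called with any 1 library left out.

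PCDHAC2 (-1.72, edgeR adjusted p 0.0439) and PCDHGA10 (-1.63, 0.0217) were the next by size, and PCDHGB2 (-1.23, 0.0261), named after its value was seen, was the fifth. The call of PCDHAC2 was lost without DMSO replicate 1 (-1.07), without ACBI1 replicate 1 and without ACBI1 replicate 2, and under limma-voom on all 4 libraries (adjusted p 0.0555). That of PCDHGA10 was lost without DMSO replicate 2 (adjusted p 0.0520) or ACBI1 replicate 2 (0.0697), and that of PCDHGB2 in every such fit except the one without DMSO replicate 1. Between 27.6% and 64.4% of the exonic length of the 26 genes overlaps other genes of the locus, so reads from the constant exons could not be assigned to 1 of them. Of 11 genes of CTCF, cohesin and related factors that shape the locus, 0 were called by edgeR (4 had an unadjusted p under 0.05), while DESeq2 called 2 higher and scaling by library size only called 3 higher. The only PCDHB pseudogene tested of 3 listed, PCDHB18P, had a log2 change of -0.65 and was not called.

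**Figure D4:**
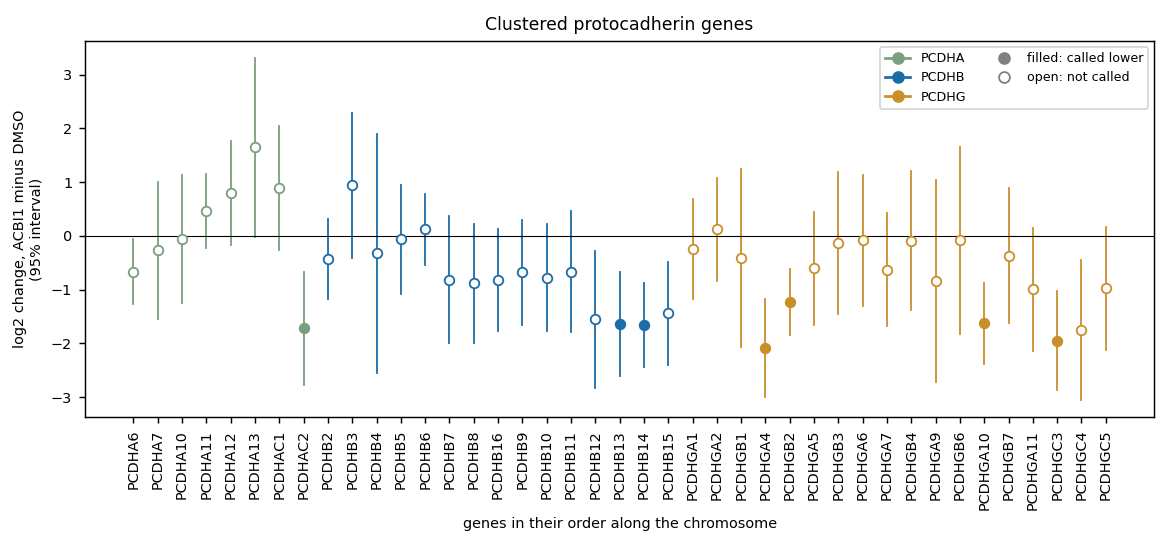
Log2 change, ACBI1 minus DMSO (y, with the 95% interval), of the 41 tested PCDHA, PCDHB and PCDHG genes in their order along the chromosome (x); filled points were called lower. Within PCDHB the points move from around 0 at the left to a median of -1.56 in the 5 at the right, and 17 of the 18 PCDHG points are below 0.

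Among the catenins, plakophilins and other adaptors of cadherins, 13 of 15 listed genes were tested, with a median log2 change of -0.17. Of these, 4 fell (10.6% of all tested genes), 2 rose (6.75% of all tested genes) and 7 were not called. JUP is plakoglobin, which can take the place of beta-catenin in adherens junctions and is also found in desmosomes. It fell from 112 and 331 CPM to 2.87 and 12.8 CPM (log2 change -4.83, edgeR adjusted p 0.0179). Its change was between -6.28 (without ACBI1 replicate 2) and -3.84 (without DMSO replicate 2), called in all 4 fits, and it was -4.11 without ACBI1 replicate 1. CTNNA3, an alpha-catenin of heart and testis, fell from 1.38 and 1.33 CPM to 0.246 and 0.0305 CPM (-3.21, edgeR adjusted p 0.0365; -5.39 without ACBI1 replicate 1 and -2.46 without ACBI1 replicate 2, called in both).

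Of the plakophilins, desmosomal plaque proteins, 2 passed the test, in opposite directions. PKP3 fell by 1.56 on the log2 scale (edgeR adjusted p 0.0261; lost without ACBI1 replicate 2, 0.0564), and PKP2 rose by 1.12 (edgeR adjusted p 0.0317; lost with any 1 library left out, 0.0656 to 0.150). The other 2 called genes of the list, named after their values were seen, were CTNNB1, or beta-catenin, from 333 and 374 CPM to 182 and 177 CPM (-0.97, edgeR adjusted p 0.0155), and CTNNAL1, an alpha-catenin-like protein (0.86, 0.0256). The call of CTNNB1 was lost without either ACBI1 library (0.0688 and 0.0686), and that of CTNNAL1 without DMSO replicate 2 (0.0601) or ACBI1 replicate 2 (0.111). CTNND1, or p120-catenin, and CTNNA1, or alpha-E-catenin, which overlapped between the groups, had log2 changes of 0.02 and -0.34.

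Calls among cadherins of other classes are to be read against the 17.4% of all tested genes called in either direction. Of 8 desmosomal genes 4 were tested and 0 were called by edgeR, with 0 at an unadjusted p under 0.05; DSG2, the desmoglein at the highest CPM here, was at 225 and 256 CPM with DMSO and 179 and 198 CPM with ACBI1. Of 18 atypical cadherins and their regulators 11 were tested, with a median log2 change of 0.46, and 1 rose and 1 fell. FAT3, a giant cadherin of the planar polarity type, had 0 and 1 counts with DMSO and 132 and 13 with ACBI1 (edgeR adjusted p 0.0310; lost without ACBI1 replicate 1, 0.0604). Its fitted log2 change of 6.70 depends on the prior count and was 4.60 without ACBI1 replicate 1, 7.503 without ACBI1 replicate 2, 5.77 without DMSO replicate 1 and 9.07 without DMSO replicate 2. CLSTN3, a calsyntenin of synapses, fell by 1.13 on the log2 scale (edgeR adjusted p 0.0179; lost without either ACBI1 library, 0.0664 and 0.0610).

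Among 6 transcriptional repressors of CDH1, SNAI2 and ZEB2 fell (10.6% of all tested genes did) and the other 4 were not called. The median log2 change was -0.56. SNAI2, or Slug, went from 6.08 and 9.10 CPM to 0.570 and 1.33 CPM (-3.01, edgeR adjusted p 0.0138; -3.74 without ACBI1 replicate 2). ZEB2 went from 65.2 and 61.4 CPM to 20.2 and 22.04 CPM (-1.58, edgeR adjusted p 0.00395), while ZEB1 was at 109 and 94.6 CPM with DMSO and 108 and 93.6 CPM with ACBI1. Both SNAI2 and ZEB2 were called with any 1 library left out. Of 9 epithelial activators 6 were tested, with a median log2 change of 0.20, and 2 fell, against 10.6% of all tested genes. The other 4 were not called and had positive log2 changes: GRHL1 0.98, ESRP2 0.59, ESRP1 0.37 and GRHL3 0.02. DESeq2 called 1 gene of this list higher. ELF3, an epithelial ETS factor, went from 13.0 and 23.7 CPM to 0.201 and 0.244 CPM (-6.37, edgeR adjusted p 0.00193). KLF5 went from 26.8 and 27.5 CPM to 9.94 and 10.8 CPM (-1.39, edgeR adjusted p 0.00750). CDH1 itself had 4 to 16 counts in the 4 libraries.

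Of 12 genes whose products cleave or glycosylate cadherins, 3 fell (10.6% of all tested genes) and 0 rose (6.75% of all tested genes). The median log2 change was -0.51. TMTC1, which adds mannose to cadherin repeats, went from 115 and 180 CPM to 24.3 and 56.3 CPM (-1.88, edgeR adjusted p 0.0334; -2.61 without ACBI1 replicate 2). NCSTN, or nicastrin, a subunit of gamma-secretase, fell by 0.99 on the log2 scale (edgeR adjusted p 0.0156; lost without either ACBI1 library, 0.0592 and 0.0587). ADAM15, a membrane protease, fell by 0.85 (edgeR adjusted p 0.0384; lost without DMSO replicate 1, 0.0657, or ACBI1 replicate 1, 0.190).

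Some genes that serve as markers of other cell types also fell in this line. Of 4 endothelial markers 3 were tested and 2 fell, against 10.6% of all tested genes. PECAM1 had 997 and 3461 counts with DMSO and 1 and 3 with ACBI1. VWF had 24 and 23 counts with DMSO and 0 in both ACBI1 libraries. The 4 summed to 12.8 and 49.0 CPM with DMSO and to 0.123 and 0.122 CPM with ACBI1, while TEK had at most 5 counts in any library. Of 4 fibroblast markers, all tested, 2 fell, against 10.6% of all tested genes. DCN fell from 3.68 and 7.55 CPM to 0.0447 and 0.107 CPM, and LUM from 5.04 and 15.1 CPM to 0.570 and 1.65 CPM. The other 2, COL1A1 and PDGFRB, were not called (edgeR adjusted p 0.0860 and 0.0967). The 4 summed to 345 and 752 CPM with DMSO and to 71.1 and 222 CPM with ACBI1, of which COL1A1 made up 324 and 693 CPM and then 62.3 and 210.2 CPM. The labels name no cells other than H1792. Whether the falls of these markers and those of CDH13, PCDH1 and PCDH18 are related was not tested.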

How the data were processed

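The deposited values were raw read counts per gene symbol in 4 libraries. Per the submitters' processing notes, TopHat2 2.1.1, HTSeq 0.11.0 and build hg38 were used; the annotation and strand setting are not given in the sources used here, so reads of antisense or overlapping genes cannot be separated. Per the labels' protocols, libraries were made from total RNA with a kit sold for DNA.

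The genes and lists were chosen with earlier results of these data known. All genes with enough counts (filterByExpr, minimum count 10, minimum total 15) were fitted in R 4.3.3 with edgeR 4.0.16 (TMM; quasi-likelihood test, two-sided, treatment alone) and Benjamini-Hochberg adjusted over 19159 genes; the common BCV was 0.244. The filter removed up to 0.0456% of the counts in a library. Lines for reads given to no gene were left out; gene counts were 84.6% to 86.1% of the reads listed. CPM use TMM library sizes, and the SE is the change divided by the root of F. Every gene passing the count rule was named, and of each context list up to 4 called genes, those that changed most. Positions, exon lengths and repeated 50-base stretches came from GENCODE release 29, matched by symbol (36405 of 61228 symbols, all 32 genes here). Replicates differed by more than sampling noise (chi-square per degree of freedom 164 for DMSO, 107 for ACBI1). Alternatives were other scalings and filters, DESeq2 1.42.0, limma-voom (limma 3.58.1), a threshold of 0.01, the replicate number as a block, and leaving out each library. The scripts were tested on simulated data.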

Additional observations from a re-analysis of the deposited data

How the results depend on the processing

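Over the alternatives without a left-out library, the 6 called genes kept their direction wherever they were tested, and of the 32 genes PCDHB5 alone turned (0.032 under library size only). With libraries left out, where the lone library of a group is assumed to vary like the other group, 9 of the 32 genes turned at least once, none of them called: CDH3 (-0.72 to 0.65), CDH6 (-1.73 to 2.70), CDH24 (-0.28 to 0.67), PCDH9 (-0.66 to 0.082), PCDH15 (-0.10 to 0.26), PCDH19 (-0.52 to 0.17), PCDHB4 (-2.95 to 0.45), PCDHB5 (-0.61 to 0.33) and PCDHB6 (-0.081 to 0.35). Of the called genes, CDH13, PCDH1 and PCDH18 were called in all 4 of these fits. Counts of called genes with 1 library left out ranged from 1682 to 3799 over all genes, 1 to 3 for CDH, 2 to 3 for PCDH and 0 to 3 for PCDHB (0 without ACBI1 replicate 2, 1 without either DMSO replicate). For the lists they ranged from 2 to 5 (catenins), 0 to 3 (atypical cadherins), 2 to 5 (PCDHA and PCDHG), 0 to 3 (CTCF and cohesin), 2 to 3 (CDH1 repressors) and 1 to 4 (cadherin processing).

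Without the filter on low counts 5518 genes were called, among them 4 PCDH, 4 PCDHB, 4 atypical cadherins, 5 processing genes and 2 of the CTCF and cohesin list. With a mean of at least 5 CPM the calls were 1 CDH, 1 PCDH, 0 PCDHB, 1 atypical cadherin, 3 PCDHA or PCDHG genes and 1 CDH1 repressor, since fewer genes were tested. DESeq2 called 4 PCDH, 4 PCDHB, 5 processing genes and 2 of the CTCF and cohesin list, of which upper-quartile scaling called 1 and library size only 3. At a threshold of 0.01 there were 783 calls (172 higher, 611 lower), with 1 CDH, 0 PCDHB, 0 catenins, 0 atypical cadherins, 0 PCDHA or PCDHG genes, 0 processing genes and 1 CDH1 repressor. Library size only called 1755 genes higher and 1866 lower, so that the share of falls was 51.5% against 61.2%.

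Replicate numbers are shared between the groups, with nothing in the labels on a common batch. Deviations of same-numbered libraries from their group means correlated at 0.52 over genes (2 pairs). With the replicate number as a block, 7909 genes were called (3708 higher, 4201 lower), with 4 PCDH (PCDH10 higher), 4 PCDHB, 7 atypical cadherins, 9 PCDHA or PCDHG genes, 8 processing genes and 4 of the CTCF and cohesin list; CDH2 was then called (adjusted p 0.00158). Genes near 10 counts, such as CDH3, CDH6 and PCDHB4, have intervals too wide to show a change of several fold.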
